A study of Mus musculus with 6 samples.

Results

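The genes described here are zinc finger genes from a comparison of adipose stromal cells (ASCs, the fibroblast-like progenitors of fat) of perigonadal and of subcutaneous fat. They are the 47 entries of the authors' deposited comparison table whose symbol begins with Zfp, Zbtb, Zscan, Zkscan or Zfhx. That table holds the probe sets selected on the authors' own paired test of perigonadal against subcutaneous pools, at an unadjusted p below 0.05, and 3541 of them were found in the value table. All 47 were among the 23531 probe sets (transcript clusters) of the value table, with 1 probe set for each gene. Their depot difference is therefore what chose them, so it is given below as a description and not as a test. The 47 amount to 47 of the 471 protein-coding genes with these prefixes in the RefSeq annotation of GRCm38.p6. Zfp638, Zfp937 and Zfp985 have other names in the authors' table and are not counted among the 47. Which of the 471 have a probe set is not known here. Of all probe sets, 15.0% were named through that table, and nothing is read from the share of the 471.

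Cells came from male mice, and 3 pools of perigonadal ASCs were set beside 3 pools of subcutaneous ASCs, each pool on 1 Affymetrix array. The cells were not cultured, and were sorted magnetically as negative for CD45 (a leukocyte marker) and CD31 (an endothelial marker) and positive for Sca1 (a progenitor marker). The labels give 6 animals without saying whether this is per pool or in all, and whether perigonadal and subcutaneous pools of 1 number share animals. Strain and age were not stated in the labels. P-values would measure only the spread between these pools.

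A C2H2 zinc finger is a small fold held together by a zinc ion, and proteins with rows of such fingers read DNA sequence. Many carry a second domain that recruits partners. The KRAB domain binds Trim28 and leads to silencing of chromatin, often over transposable elements, while the BTB domain pairs proteins and binds corepressors. In fat, zinc finger factors such as Zfp423 and Zfp521 are known to promote and to restrain the commitment of stromal cells to the adipocyte lineage. Neither Zfp423 nor Zfp521 is among the 47, and neither was analysed here.

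The label of zinc finger transcription factors holds for most but not for all of the 47. Zfp365 encodes a coiled-coil protein of the centrosome with little relation to DNA-reading factors, and Zfp385b carries matrin-type fingers, a kind that binds double-stranded RNA. These 2 are called non-classical below. No member belongs to the CCCH family of mRNA decay factors (Zfp36, Zfp36l1 and Zfp36l2). Classes were assigned from textbook knowledge after the values had been seen: 15 members carry a KRAB domain, 7 a BTB domain, 2 a SCAN dimerisation domain and 2 a homeodomain, 1 is a FOG cofactor of GATA factors, and 18 were left as other C2H2 proteins. No domain was computed from a sequence.

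Promoter sequences from RefSeq (build GRCm38.p6, 250 bases before to 50 after a gene's start) were given for 38 of the 47 genes, in 46 windows. The sequences of 6 windows are shown because they include 3 members of 1 stretch of chromosome 13, whose depot differences point both ways, and 3 members with named differences that hold the GC box or the third motif below; other members hold more matches. Capitals mark 3 motifs on either strand, namely the ETS core CCGGAAG, the GC box GGGCGG of Sp and Klf factors and the core of the motif shared by ZNF143 and THAP11. All 8 motifs searched were chosen after the members' values were known, and the last was added after these windows had been read.
Zfp640 (GRCm38.p6, chr13:66680754-66681053, - strand): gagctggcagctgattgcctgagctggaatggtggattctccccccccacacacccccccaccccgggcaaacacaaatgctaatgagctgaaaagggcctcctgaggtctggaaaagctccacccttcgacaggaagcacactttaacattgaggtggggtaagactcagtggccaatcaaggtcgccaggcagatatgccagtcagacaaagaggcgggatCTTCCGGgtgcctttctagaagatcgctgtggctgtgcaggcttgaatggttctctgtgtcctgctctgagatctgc
Zfp457 (GRCm38.p6, chr13:67306363-67306662, - strand): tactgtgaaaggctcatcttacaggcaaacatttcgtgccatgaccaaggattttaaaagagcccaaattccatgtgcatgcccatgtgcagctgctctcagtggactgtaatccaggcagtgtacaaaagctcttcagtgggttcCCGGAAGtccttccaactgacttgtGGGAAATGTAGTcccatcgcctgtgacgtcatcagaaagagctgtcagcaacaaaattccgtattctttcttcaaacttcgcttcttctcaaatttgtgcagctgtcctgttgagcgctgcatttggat
Zfp273 (GRCm38.p6, chr13:67813566-67813865, + strand): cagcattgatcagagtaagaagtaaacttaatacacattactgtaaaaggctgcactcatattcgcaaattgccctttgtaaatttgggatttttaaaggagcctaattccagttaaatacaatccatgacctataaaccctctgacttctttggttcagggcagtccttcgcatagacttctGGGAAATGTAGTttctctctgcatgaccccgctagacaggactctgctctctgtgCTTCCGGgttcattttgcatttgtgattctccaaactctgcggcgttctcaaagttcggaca
Zfp691 (GRCm38.p6, chr4:119174146-119174445, - strand): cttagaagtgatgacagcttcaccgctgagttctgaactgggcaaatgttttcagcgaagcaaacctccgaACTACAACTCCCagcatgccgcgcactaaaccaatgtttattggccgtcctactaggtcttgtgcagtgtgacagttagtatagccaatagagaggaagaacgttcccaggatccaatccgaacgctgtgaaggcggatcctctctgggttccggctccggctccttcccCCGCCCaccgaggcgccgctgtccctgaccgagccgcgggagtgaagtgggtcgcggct
Zfp260 (GRCm38.p6, chr7:30094826-30095125, + strand): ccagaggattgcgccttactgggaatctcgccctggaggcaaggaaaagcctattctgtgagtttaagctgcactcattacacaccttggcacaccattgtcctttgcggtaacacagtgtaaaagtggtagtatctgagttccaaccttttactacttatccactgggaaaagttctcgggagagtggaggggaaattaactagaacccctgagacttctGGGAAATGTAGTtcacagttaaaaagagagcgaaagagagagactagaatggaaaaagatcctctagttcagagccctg
Zfp39 (GRCm38.p6, chr11:58904176-58904475, - strand): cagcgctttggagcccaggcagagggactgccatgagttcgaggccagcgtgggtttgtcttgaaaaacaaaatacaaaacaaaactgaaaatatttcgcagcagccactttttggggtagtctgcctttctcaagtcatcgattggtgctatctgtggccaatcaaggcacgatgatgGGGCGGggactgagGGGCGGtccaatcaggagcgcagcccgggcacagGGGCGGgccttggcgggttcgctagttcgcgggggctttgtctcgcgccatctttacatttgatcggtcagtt

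Zfp640, Zfp457 and Zfp273 of chromosome 13 each held 1 ETS core, and Zfp457 and Zfp273 also held the ZNF143 and THAP11 core. Over all member windows the ETS core was found in 13 of 46 (28.3%), against 2910 of 32851 windows of all genes (8.86%) and 2459 of 21263 windows of protein-coding genes (11.6%). The ZNF143 and THAP11 core was in 7 of 46 member windows (15.2%), against 595 of all windows (1.81%) and 540 of the protein-coding ones (2.54%). The GC box was in 26 of 46 member windows (56.5%), against 35.7% of all windows and 46.2% of the protein-coding ones. Zfp39, which is lower in perigonadal cells, held 3 GC boxes in its window. The other motifs were also searched on both strands. The NRF1 motif GCATGCGC was in 1 member window, or 2.17%, against 2.71% of all windows. The cAMP response element TGACGTCA was in 2, or 4.35%, against 1.79% of all windows, and the ZBTB33 motif was in 0, against 0.466% of all windows. The E-box CACGTG, read by factors such as Myc and Usf, was in 5 member windows, or 10.9%, against 7.15% of all windows. The TATA box TATAAA was in 4, or 8.70%, against 13.6% of all windows. No match of one motif was removed for overlapping another. Each match describes letters only, and matches were not tested.

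CpG dinucleotides, which are dense in the promoters of broadly used genes, had a median of 17 per window in members and 13 in protein-coding genes. Their range among members ran from 3 in a Zfp385b window and in a Zfp384 window to 49 in Zfp318. Members higher in perigonadal pools had a median of 8 CpG over 11 windows, and those lower in perigonadal pools 21 over 35 windows, with 4 of the 11 belonging to Zfp385b.

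**Figure D1:**
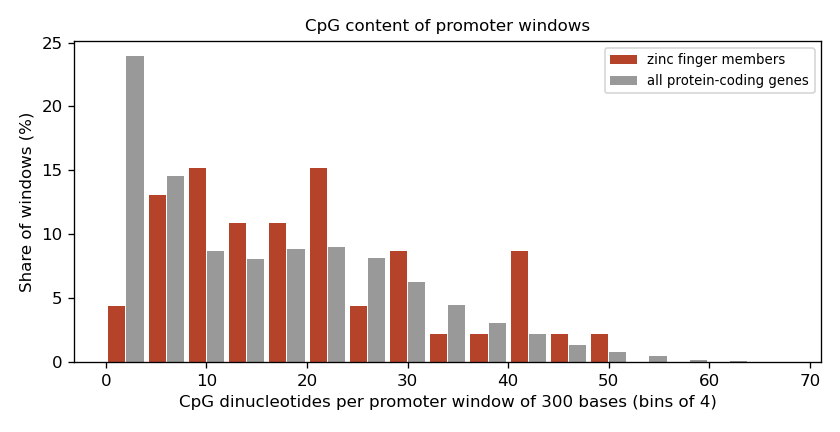
Share of promoter windows (vertical axis, percent) by number of CpG dinucleotides in 300 bases (horizontal axis, bins of 4), for 46 windows of zinc finger members and 21263 windows of protein-coding genes. The lowest bin holds 4.35% of member windows and 23.9% of protein-coding windows.

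In perigonadal ASCs most of these genes were lower. Of the 47, 38 had a lower and 9 a higher mean than in subcutaneous ASCs, and the median difference was -0.37 on the log2(intensity + 1) scale, perigonadal minus subcutaneous. The same median was -0.01 over all probe sets and -0.13 over the 3541 probe sets named through the comparison table, of which 2021 (57.1%) had a difference below 0, against 80.9% of the members. The differences ran from -2.18 for Zfhx4 to 1.08 for Zfp385b. These were the only members with a difference of at least 2-fold on that scale. That size was reached by 2.21% of all probe sets, and by 276 upward and 226 downward of the 3541 named ones. RNA was measured in bulk, so fewer cells of a type and less RNA per cell cannot be told apart.

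Each intensity is a normalized value on a linear scale with no fixed unit, and array medians lay between 6.44 and 6.96. Of the members, 6 (12.8%) were below the array median on all 6 arrays, 11 on some and 30 on none. On all 6 arrays 44.6% of all probe sets and 17.7% of the 3541 named ones were below it. The depots did not overlap for 37 members, 5 with every perigonadal pool above every subcutaneous pool and 32 with every one below. Over all probe sets the depots did not overlap in 25.1%, with 10.7% above and 14.4% below. Of the 3541 named probe sets, 1226 lay above and 1652 below without overlap. In 10 members they overlapped. All 3 pool pairs pointed the same way in all 47, which a paired p below 0.05 on 3 pairs requires, so this follows from the selection.

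In a limma fit over all probe sets with pool number as a block, 5 members passed an adjusted p of 0.05 as higher and 23 as lower, and 19 did not pass. Over all probe sets 4.05% passed as higher and 5.47% as lower, 9.51% in either direction. Of the 3541 named probe sets, 22.1% passed as higher and 29.6% as lower. The same contrast chose the members, so nothing is read from these counts. Without pool pair 1 the number lower was 7, and without pool pair 2 it was 10. Without pool pair 1, 17 members no longer passed, 16 of them lower and 1, Zfp691, higher. The 7 still lower were Zfhx4, Zfp39, Zfp462, Zfp652, Zfp651, Zfp260 and Zfp318. Without pool pair 2, 14 no longer passed, among them Zfp691, Zfhx3 and Zfp651. In the authors' deposited table the member nearest the threshold was Zfp462, with an unadjusted p of 0.048, and the member farthest from it was Zfp2, with 0.00273. Probe sets just above the threshold have no gene name in the files used here.

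**Figure D2:**
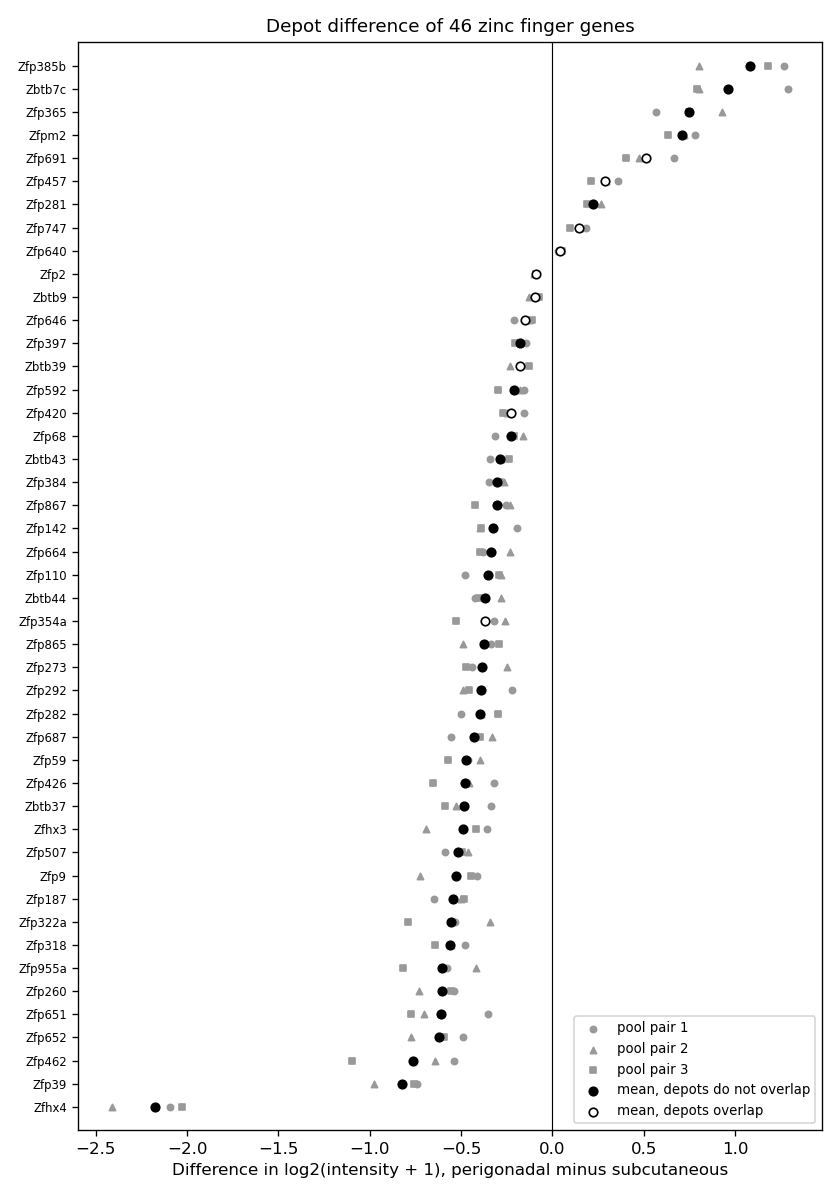
Depot difference in log2(intensity + 1), perigonadal minus subcutaneous (horizontal axis), for each of 46 genes (rows). Grey symbols are the 3 pool pairs and large points their mean, filled for the 36 genes whose depots do not overlap and open for the 10 that overlap. Zfhx4 stands apart at -2.18, and 9 genes lie above 0.

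The homeodomain members were both lower in perigonadal ASCs. Zfhx4 encodes a very large protein with many zinc fingers and several homeodomains, and is a paralog of Zfhx3. Its intensity was 9.59, 9.62 and 12.23 in perigonadal pools 1 to 3, against 44.28, 55.46 and 52.99 in subcutaneous pools 1 to 3. Every perigonadal pool was far below every subcutaneous pool, with means of 10.5 ± 1.52 and 50.9 ± 5.87 (SD, n = 3 each, as below), so that the subcutaneous mean was 4.86 times the perigonadal one. The log2 difference was -2.18 ± 0.10 (SE). Zfhx3, a regulator of the circadian clock in the brain, had 16.30, 13.84 and 15.13 in perigonadal pools, against 21.15, 22.94 and 20.55 in subcutaneous pools. Its depots were also apart, with a smaller log2 difference of -0.49 ± 0.10.

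Zfpm2 (FOG2) binds GATA factors and is needed in the development of heart and gonads. It was measured at 32.23, 37.41 and 31.85 in perigonadal pools, against 18.37, 22.29 and 20.22 in subcutaneous pools. The depots were apart by more than the range within either one, and the log2 difference was 0.71 ± 0.087.

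The non-classical members were both higher in perigonadal ASCs. Zfp385b was at 12.40, 9.52 and 11.59 in perigonadal pools, against 4.56, 5.04 and 4.55 in subcutaneous pools, a log2 difference of 1.08 ± 0.11. Subcutaneous values lay below the array medians and perigonadal ones above them. Zfp365 was at 8.17, 8.73 and 7.54 in perigonadal pools, against 5.18, 4.12 and 4.08 in subcutaneous pools, a log2 difference of 0.75 ± 0.10. It showed the same position about the array medians, with no overlap between depots.

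BTB members went mostly one way, as the members did as a whole, with 6 of 7 (85.7%) below 0 and Zbtb7c above. Of all 47 members 80.9% were below 0. Zbtb7c (Kr-pok), known in mice as a regulator of fatty acid synthesis genes, was at 9.94, 7.62 and 8.16 in perigonadal pools, against 3.47, 3.94 and 4.30 in subcutaneous pools. Its log2 difference of 0.96 ± 0.12 was the second highest of the 47. The subcutaneous values of Zbtb7c lay below the array medians and its perigonadal ones above them. At the other end of the class, Zfp651, whose human counterpart is named ZBTB47, was at 22.75, 19.86 and 17.70 in perigonadal pools, against 29.32, 32.98 and 31.00 in subcutaneous pools (log2 difference -0.61 ± 0.11). All its perigonadal pools lay below all its subcutaneous pools. Zbtb37 averaged 5.39 ± 0.626 in perigonadal and 7.94 ± 1.01 in subcutaneous pools, and Zbtb44 averaged 16.6 ± 0.21 and 21.8 ± 0.968. Zbtb43 averaged 7.34 ± 0.762 in perigonadal and 9.16 ± 0.805 in subcutaneous pools. These 3 had no overlap between depots, Zbtb43 did not pass the limma threshold, and Zbtb37 and Zbtb44 did not pass without pool pair 1 or without pool pair 2. Zbtb44 also did not pass without pool pair 3, with no pseudocount, with quantile normalization or with a trend of the prior variance. Zbtb37 also did not pass with a pseudocount of 16. Zbtb39 (8.29 ± 0.947 and 9.50 ± 0.698) and Zbtb9 (6.67 ± 0.556 and 7.18 ± 0.557) overlapped between perigonadal and subcutaneous pools and did not pass. In the limma fit 1 BTB member was higher, 3 were lower and 3 did not pass.

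**Figure D3:**
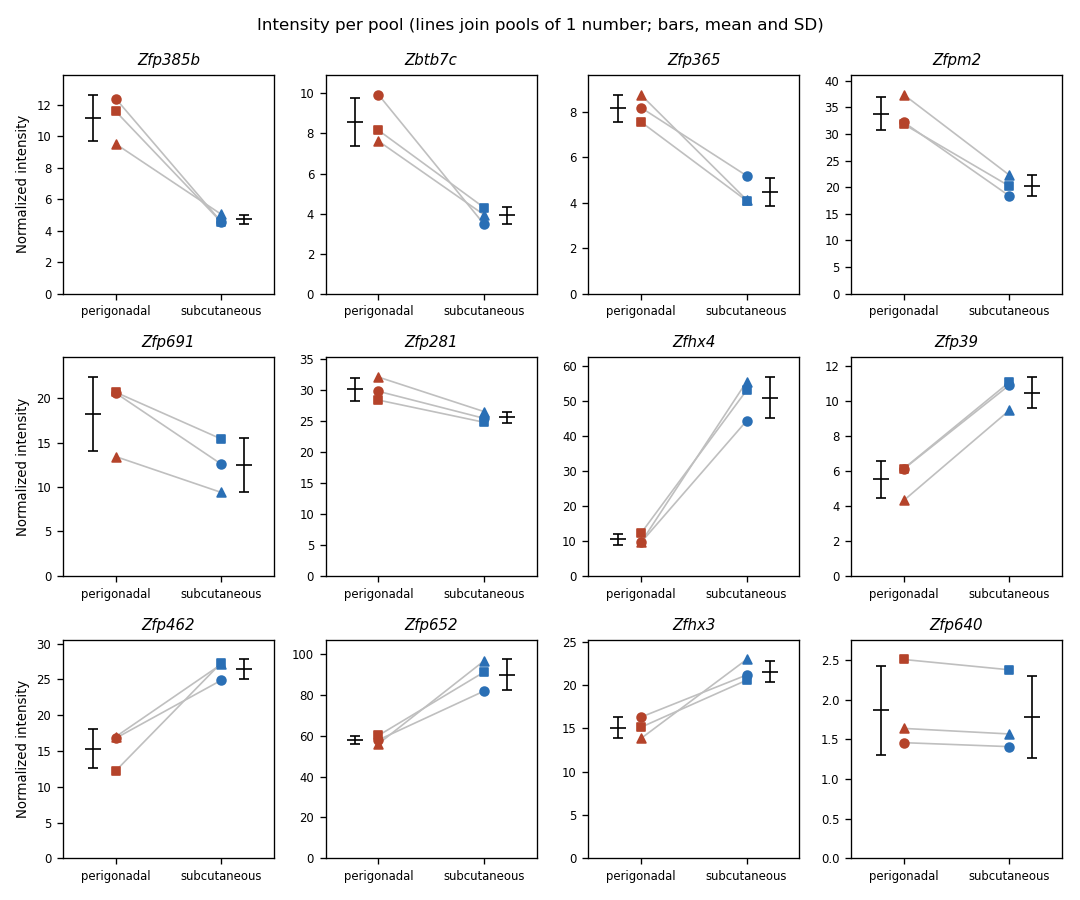
Normalized intensity (vertical axes, linear, from 0) in perigonadal pools (red, left) and subcutaneous pools (blue, right) for 12 members, with lines joining pools of 1 number and bars giving mean and SD (n = 3). Zfhx4 has perigonadal pools at 9.59 to 12.23 and subcutaneous pools at 44.28 to 55.46, while Zfp640 differs less between depots than among pools.

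KRAB members showed small differences, mostly downward, as did the members as a whole. Of the 15, 8 passed the limma threshold as lower, 0 as higher and 7 did not pass, with a median log2 difference of -0.39. Of all 47 members 48.9% passed as lower, and their median was -0.37. Their summed intensity was between 163 and 174.5 in perigonadal pools and between 220 and 238 in subcutaneous pools. Zfp39 had the most negative difference of the class, at 6.11, 4.31 and 6.13 in perigonadal pools, against 10.89, 9.45 and 11.06 in subcutaneous pools (log2 difference -0.83 ± 0.093). In both depots its value in pool 2 was the lowest of the 3. Zfp955a was at 9.02, 7.98 and 6.88 in perigonadal pools, against 13.93, 11 and 12.88 in subcutaneous pools (log2 difference -0.60 ± 0.10).

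The other KRAB members that passed as lower and are described here had log2 differences between -0.53 and -0.39. They were Zfp9 (32.7 ± 3.98 in perigonadal and 47.6 ± 5.03 in subcutaneous pools), Zfp59 (37.2 ± 0.563 and 52.2 ± 3.78) and Zfp426 (12.3 ± 1.77 and 17.4 ± 0.871). Zfp282 averaged 5.37 ± 0.357 and 7.42 ± 0.864, and Zfp273 averaged 4.26 ± 0.336 and 5.90 ± 0.803. These 5 had no overlap between the depots, and none of them passed without pool pair 1 or without pool pair 2. Zfp426 and Zfp273 also did not pass without pool pair 3. Zfp426 did not pass with quantile normalization, nor Zfp282 and Zfp273 with a pseudocount of 16. The human counterpart of Zfp282 was found through its binding to the promoter of a retrovirus.

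The 7 KRAB members that did not pass were Zfp110, Zfp68, Zfp867, Zfp420, Zfp354a, Zfp457 and Zfp747. Zfp110, a partner of the neurotrophin receptor p75, averaged 12.5 ± 0.702 in perigonadal and 16.2 ± 1.52 in subcutaneous pools. Zfp68 averaged 18.1 ± 0.791 and 21.4 ± 1.52, and Zfp867 averaged 4.02 ± 0.157 and 5.22 ± 0.656, both without overlap. Zfp867 was below the array median on every array. Zfp420 (4.0 ± 0.401 and 4.87 ± 0.669) and Zfp354a (3.04 ± 0.453 and 4.22 ± 0.62) were also below the array median on every array and overlapped between depots. Zfp354a is the mouse relative of the rat kidney factor Kid-1. Zfp457 and Zfp747 had differences above 0, and Zfp457 lay below the array median on every array. Zfp457 was at 5.73, 4.47 and 3.48 in perigonadal pools, against 4.24, 3.47 and 2.87 in subcutaneous pools, and Zfp747 at 11.34, 8.68 and 7.95, against 9.86, 7.71 and 7.37. In both genes and both depots pool 1 was highest and pool 3 lowest, the depots overlapped, and each perigonadal pool was above the subcutaneous pool of its number. Among genes whose depots overlap, the authors' paired selection favours those whose pools of 1 number move together. The shared order of pools is therefore not read as a trait of these genes.

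**Figure D4:**
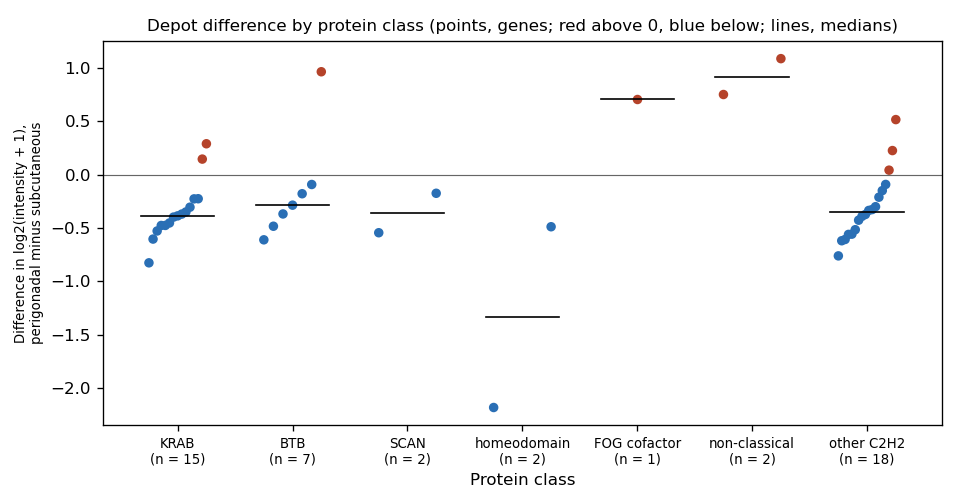
Depot difference in log2(intensity + 1), perigonadal minus subcutaneous (vertical axis), of each gene (points, red above 0 and blue below) by protein class (horizontal axis), with class medians as lines. The 15 KRAB members have a median of -0.39, and both non-classical members lie above 0.

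The 2 SCAN members were lower without overlap. Zfp187, named Zscan26 in RefSeq, was at 16.48, 16.77 and 16.79 in perigonadal pools, against 26.39, 24.12 and 23.90 in subcutaneous pools (log2 difference -0.54 ± 0.088). The perigonadal pools were nearly alike. Zfp397 averaged 17.5 ± 0.462 in perigonadal and 19.9 ± 0.382 in subcutaneous pools, and did not pass.

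Among the 18 other C2H2 members, 1 passed as higher, 9 as lower and 8 did not pass. Zfp462, a large nuclear protein linked to heterochromatin, was at 16.79, 17.00 and 12.24 in perigonadal pools, against 24.89, 27.12 and 27.32 in subcutaneous pools. Its log2 difference was -0.76 ± 0.12, the largest downward one of the 47 after Zfhx4 and Zfp39, with perigonadal pool 3 below the other two. Zfp652, a repressor that works with the CBFA2T family of corepressors, was at 57.90, 56.00 and 60.07 in perigonadal pools, against 81.76, 96.51 and 91.04 in subcutaneous pools. Its depots were widely apart (log2 difference -0.62 ± 0.095). Zfp260, a partner of GATA4 in heart muscle cells, was at 21.11, 19.84 and 24.58 in perigonadal pools, against 31.10, 33.54 and 36.56 in subcutaneous pools (log2 difference -0.61 ± 0.09). It too had no overlap.

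Zfp318, which in B cells is needed for IgD expression, was at 14.68, 11.59 and 11.34 in perigonadal pools, against 20.82, 17.53 and 18.30 in subcutaneous pools (log2 difference -0.56 ± 0.088). Zfp322a, a pluripotency factor of mouse embryonic stem cells, was at 4.60, 5.95 and 6.09 in perigonadal pools, against 7.12, 7.82 and 11.28 in subcutaneous pools (log2 difference -0.56 ± 0.11). Subcutaneous pool 3 of Zfp322a stood well above the other two, and the gene did not pass without the pool number as a block, with a pseudocount of 16 or without pool pair 1. Zfp507 averaged 7.23 ± 0.821 in perigonadal and 10.8 ± 1.7 in subcutaneous pools. Zfp687 and Zfp592, which belong to a chromatin complex with Zmynd8, averaged 11.4 ± 0.854 and 28.9 ± 0.141 in perigonadal pools, against 15.7 ± 1.63 and 33.7 ± 1.77 in subcutaneous pools. Zfp687 passed as lower and Zfp592 did not. Zfp292 (9.75 ± 1.34 in perigonadal and 13.0 ± 0.483 in subcutaneous pools) and Zfp865 (13.3 ± 1.66 and 17.4 ± 1.22) also passed as lower. Zfp687, Zfp292 and Zfp865 did not pass without pool pair 1, without pool pair 2 or with quantile normalization, and Zfp507 did not pass without pool pair 1. Zfp292 and Zfp865 also did not pass with no pseudocount or with a trend of the prior variance. Zfp292 did not pass with a pseudocount of 16 or without pool pair 3 either.

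Zfp691 and Zfp281 lay above 0. Zfp691 was at 20.56, 13.42 and 20.65 in perigonadal pools, against 12.57, 9.39 and 15.40 in subcutaneous pools, a log2 difference of 0.51 ± 0.094. Pool 2 was the lowest in both depots and its perigonadal value fell within the subcutaneous range, so the depots overlapped. Without the pool number as a block Zfp691 no longer passed. Zfp281, a factor of pluripotent stem cells, was at 29.79, 32.09 and 28.38 in perigonadal pools, against 25.44, 26.53 and 24.80 in subcutaneous pools. Its depots were apart, and its log2 difference of 0.22 ± 0.085 did not pass. Zfp640 was at 1.46, 1.64 and 2.51 in perigonadal pools, against 1.41, 1.57 and 2.38 in subcutaneous pools. It lay below the array median on every array, and its pools of 1 number were closer to each other than to pools of the same depot. A difference this small passes a paired test only if its pairs agree closely. The closeness of pairs therefore goes with the selection and is not read as a trait of the gene.

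The remaining members that did not pass had small downward differences. Zfp384 (Nmp4 or CIZ), a regulator of matrix genes in bone cells, averaged 33.0 ± 0.705 in perigonadal and 40.9 ± 0.636 in subcutaneous pools. Zfp142 averaged 11.5 ± 0.427 and 14.8 ± 1.45, and Zfp664 averaged 6.27 ± 0.508 and 8.18 ± 0.612. These 3 had no overlap between depots. Zfp646 (9.46 ± 0.708 in perigonadal and 10.6 ± 0.989 in subcutaneous pools) and Zfp2 (2.63 ± 0.359 and 2.87 ± 0.374) overlapped. Zfp2 lay below the array median on every array.

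Zinc finger genes often lie side by side in the genome. The 47 lay on 15 chromosomes, with 9 on chromosome 7, 6 on chromosome 13 and 5 on chromosome 11. The 5 of chromosome 11 all had differences below 0, as did 8 of the 9 of chromosome 7 and 4 of the 6 of chromosome 13. In gene order (RefSeq, GRCm38.p6), 7 protein-coding genes lay between Zfp420 and Zfp260 of chromosome 7, all with the same prefixes, and both members were below 0. Another 7 lay between Zfp2 and Zfp354a of chromosome 11, which were both below 0 as well. Between Zfp640 and Zfp457 of chromosome 13 lay 12, of which 5 had these prefixes, and both members were above 0, Zfp640 only by 0.041. Between Zfp747 and Zfp646 of chromosome 7 lay 23, of which 5 had these prefixes, and those members went opposite ways (0.14 and -0.15). As 38 of the 47 were below 0, most members share a direction wherever they lie, so agreement of neighbours is not read as a trait of clusters. Genes of such clusters can be near-identical, and whether their probe sets cross-hybridise was not tested.

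Partners of zinc finger factors were read from lists drawn up from textbook knowledge, over genes with a name in the comparison table only, so that the authors' test had selected each of them too. Of all 3541 probe sets with a name, 22.1% passed the limma threshold as higher and 29.6% as lower, and the counts below are to be set beside these shares. Of 24 genes of KRAB silencing, 6 had a name: the heterochromatin protein Cbx5 was higher (39.8 ± 3.53 in perigonadal and 29.1 ± 1.64 in subcutaneous pools), Morc3 and Atf7ip were lower, and 3 did not pass. Of 19 BTB corepressor genes, 4 had a name, and the histone deacetylases Hdac4 (17.7 ± 2.56 and 39.0 ± 5.20) and Hdac7 (50.1 ± 4.79 and 80.5 ± 1.91) were lower while 2 did not pass. Of 14 genes of the NuRD complex, 3 had a name, with Rbbp7 higher, Gatad2b lower and 1 not passing. Of 25 partners of Zfp423 and Zfp521, 11 had a name, with 6 lower, 0 higher and 5 not passing. The largest differences were those of the BMP ligands Bmp7 (21.3 ± 3.73 in perigonadal and 63.4 ± 5.74 in subcutaneous pools) and Bmp2 (17.1 ± 4.52 and 39.8 ± 5.95) and of Ebf3 (11.8 ± 1.91 and 31.8 ± 4.02), of the family of EBF factors that bind Zfp423 and Zfp521. Only 3 of 13 glucocorticoid-linked genes had a name, and Hsd11b1, which regenerates active glucocorticoid, was higher while 2 did not pass.

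Zinc finger factors with other kinds of names were read in the same way. Of 103 listed, 18 had a name, 3 higher and 9 lower in perigonadal pools, and 6 did not pass. The largest differences were those of Wt1, a factor of mesothelium and kidney that is also on the mesothelial list below (141 ± 13.5 in perigonadal and 4.18 ± 0.493 in subcutaneous pools), Osr2, a factor of limb and palate development (23.6 ± 3.03 and 226 ± 11), and the GATA-type repressor Trps1 (22.7 ± 3.01 and 3.58 ± 0.419). The median log2 difference of these 18 was -0.38.

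Lists of cell type markers could be counted only where the comparison table names the gene. The authors' depot test had thus selected every marker below, and a depot difference in them follows from that selection. Their counts are to be set beside the 22.1% higher and 29.6% lower among all 3541 named probe sets. Markers without a name were not examined. Of 18 mesothelial markers 12 had a name, 11 of them higher and 1 not passing, with a summed intensity of 1021 to 1133 in perigonadal and 883 to 974 in subcutaneous pools. The 1 not passing, Igfbp6, made up most of these sums, at 675 ± 42.4 and 857 ± 41.3. Of 8 Schwann cell markers 3 had a name and all 3 were lower, summing to 18.4 to 20.7 in perigonadal and 50.8 to 61.4 in subcutaneous pools. Of 10 pericyte and smooth muscle markers 6 had a name, 4 higher (Acta2, Des, Myh11 and Tagln) and 2 lower. The lower ones were Abcc9 (6.80 ± 0.352 in perigonadal and 32.1 ± 5.32 in subcutaneous pools) and Kcnj8 (3.32 ± 0.31 and 7.20 ± 1.19). All 6 together summed to 111 to 146 in perigonadal and 62.3 to 88.0 in subcutaneous pools, a sum that mixes both directions. The 3 named leukocyte markers of 14 summed to 10.1 to 11.99 in perigonadal and 7.75 to 8.84 in subcutaneous pools, with 1 higher and 2 below the array median on all 6 arrays. Tek was the only endothelial marker of 10 with a name and was lower, at 76.5 ± 2.94 and 130 ± 8.99, and both named adipocyte markers of 8 (Lpl and Plin4) were lower. No named marker was at 0. Of 12 stromal markers 6 had a name, with 1 higher, 4 lower and 1 not passing. The last was Ly6a, the gene of the sorted Sca1 antigen, at 479 ± 44.0 in perigonadal and 552 ± 59.5 in subcutaneous pools. The part of other cell types in the differences of the zinc finger genes was not tested.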

How the data were processed

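Intensity was measured on 6 Affymetrix arrays. The intensity values deposited by the authors are normalized and linear; the submitters' processing notes name Partek, and how background and normalization were handled is not given in the sources used here. Per the file headers, the authors' comparison table gives mean log2 intensities and their log2 difference, their ratio, a signed fold score, a t score and, for each probe set, a p-value without adjustment from their paired test. Recomputed on log2 intensities with pools of 1 number paired, that p-value came within 10% of the authors' for 46 of the 47 members. Gene names came from this table alone (15.0% of probe sets). RefSeq GRCm38.p6 matched 46 members by accession and 1 by symbol.

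The tool was limma 3.58.1 (lmFit, eBayes; R 4.3.3), run on log2(intensity + 1) over 23531 probe sets without a filter, with pool number as a fixed block after the authors' paired test, and Benjamini-Hochberg adjustment at 0.05. Across probe sets, deviations from the depot mean correlated between pools of number 1, 2 and 3 at 0.17, 0.16 and 0.053, so pairing rests on the authors' use of it. On simulated pools of both depots, with 23531 probe sets tested, 78% of changes of log2 1 and 95% of changes of log2 2 were recovered. Those pools were drawn independently, with no effect of pool number, and no smaller change was planted. The median absolute difference of the members was 0.40, so the recovery of differences like most of theirs was not tested. The number of arrays limits precision. Members and lists were chosen with earlier results of these data known. Full pool values are given for the members with the 10 largest positive (9 existed) and 10 largest negative differences, for those on a list of fat-related zinc finger genes (7 of 26 had a name) and for the member nearest the authors' threshold; the others are given by means, and 1 of them, which the counts include, is not reported here. List genes were named up to 3 per list by size of difference among those past the threshold. Ly6a, Igfbp6, Kcnj8, Myh11 and Tagln were added after their values were seen.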

Additional observations from a re-analysis of the deposited data

How the results depend on the processing

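The alternatives were no pseudocount, a pseudocount of 16, no replicate block, a filter on dim probe sets, quantile normalization, a trend of the prior variance, each pool pair left out and the methods' t-test. Counting every probe set on its own gave the same values, since each member had 1. Over all members and the alternatives fitted with limma, each member was compared with its state in the limma fit described above, in 412 comparisons. Of these, 56 lost a call, 7 gained one and 0 reversed direction. The 412 include comparisons of the 19 members that did not pass in that fit and so had no call to lose. The authors' paired selection on 3 pairs needed all 3 differences to share a sign. Only quantile normalization could therefore have reversed a direction, and little is read from the 0. Of the losses, 17 came without pool pair 1 and 14 without pool pair 2. Over all these alternatives, 12 of the 56 losses fell in the 176 comparisons for the 20 members given pool by pool. These members were named mostly for large differences. The 176 likewise include members that had no call to lose. With a pseudocount of 16 the median difference of the members was -0.16 and 1 member differed at least 2-fold, as a larger pseudocount shrinks differences of dim probe sets. The filter left 36 of the 47 members, with 3 higher. Zbtb7c and Zfp365, higher in the main fit, were among the dim members it removed, and no member it kept lost a call. With no replicate block Zfp691, Zfp322a, Zfp273 and Zfp865 lost their call, 4 members were higher and 21 lower, and 943 and 1316 of all probe sets. Quantile normalization gave 968 probe sets higher and 980 lower, against 952 and 1286 in the limma fit described above. It gave 5 members higher and 18 lower, with a median difference of -0.33, so the excess of lower calls over all probe sets depends on the normalization. Leaving out 1 pool pair gave 529 to 1068 probe sets higher and 660 to 1408 lower, 7 to 19 members lower and 1 to 3 members with at least a 2-fold difference. The methods' t-test on 3 pairs called 0 members higher and 0 lower after Benjamini-Hochberg adjustment, and 0 probe sets higher and 0 lower of all, with 3541 at an unadjusted p below the authors' threshold. With so few arrays, differences of the size of most members are measured with little precision.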

Other observations

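Of 3 further probe sets that carry a Zfp symbol in RefSeq but another name in the comparison table, Zfp937 (Gm4979 there) was at 25.79, 21.58 and 22.84 in perigonadal pools, against 42.20, 31.64 and 45.23 in subcutaneous pools, with no overlap and a log2 difference of -0.73 ± 0.11 (SE). Zfp638 (Zfml there), which is known as a cofactor of adipogenesis, was at 28, 31.66 and 23.95 in perigonadal pools, against 35.57, 36.67 and 33.69 in subcutaneous pools. It had no overlap between depots and did not pass limma's threshold. Zfp985 (Gm13154 there) averaged 2.22 ± 0.202 in perigonadal and 2.37 ± 0.202 in subcutaneous pools, overlapped and did not pass. These genes were outside the rule for the 47 and were set beside them after their values were seen.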
